A study of Mus musculus with 6 samples.

Results

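The immediate early transcription factors of the prefrontal cortex (PFC) were examined in 6 RNA-seq libraries as a set of 10 genes. They are the AP-1 genes Fos, Fosb, Fosl2 and Junb, the Egr genes Egr1, Egr2, Egr3 and Egr4, and the genes Npas4 and Zfp189. They were picked by their symbols from the 54429 genes in the count tables, as factors that neuronal activity induces, and all 10 were among the 20409 genes with enough counts to be tested. The choice was made with earlier results of the same libraries known, so their levels in the 3 groups and the differences between groups are given as a description, with standard errors and without p-values of their own.

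The study asked how a short treatment with UNC0642, an inhibitor of the histone methyltransferases EHMT1 and EHMT2, alters transcription in a mouse model of tauopathy. Each group holds 2 libraries, which the sources call biological duplicates, of whole PFC tissue from mice of 6 months. WT mice (C57BL/6 x C3H) and P301S Tau mice (PS19) received vehicle, saline with a little DMSO, and a further group of P301S Tau mice received UNC0642 at 1 mg/kg, by intraperitoneal injection once daily for 3 days with experiments a day later. The PS19 line carries mutant human tau (P301S, 1N4R) under the mouse prion promoter, and both sexes of transgenic and wild-type littermates were used.

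Immediate early genes are transcribed within minutes of a stimulus from factors already present in the cell, without new protein synthesis. In neurons, calcium entry and MAP kinase signalling act on CREB, SRF with its ternary complex partners, and MEF2 at the promoters and enhancers of these genes, and the products in turn control later genes for synapses and signalling. FOS and JUN family proteins pair to form AP-1, the EGR proteins are zinc finger factors that bind GC-rich sites and are restrained by the corepressors NAB1 and NAB2, and NPAS4 is a bHLH-PAS factor that responds selectively to calcium. ZFP189 is a KRAB zinc finger protein. The mRNAs are short-lived, and the H3K9me2 mark placed by EHMT1 and EHMT2 is associated with silenced genes.

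RefSeq promoter windows on GRCm38.p6 were found for 8 of the 10 genes. No window was matched for Egr1 or Egr3. The windows were searched on both strands for TGACG, the core of the cAMP response element, which CREB family factors bind. It was present in the 250 bases before the RefSeq start of 6 of the 8 genes, with 1 window a gene. This stands against 17.8% of all 32851 windows and 23.2% of the 19344 windows with a GC content of at least 50%, where a gene can have several windows. Egr2 had 5, and that nearest the start of its locus was used. Parts of the windows of Fosb, Fosl2, Egr2 and Npas4 lie inside the gene loci given below. The windows of Fos, Egr4 and Npas4 held 2 such cores each, and those of Fosb, Junb and Zfp189 held 1. Those of Fosl2 and Egr2 held none. The full element TGACGTCA, the AP-1 site TGANTCA, the Egr site GCGTGGGCG, the CArG box of SRF and the MEF2 site were in none of the 8 windows, and in 1.55%, 6.75%, 0.536%, 1.47% and 2.92% of all windows. The core is part of the full element. The search covered these 250 bases alone, so sites further from the start, and all sites of Egr1 and Egr3, were not looked for. These letters are a description of the windows, and no binding was measured. Of the windows of Fos (chr12:85473640-85473889, plus strand), Zfp189 (chr4:49520926-49521175, plus strand) and Egr2 (chr10:67535249-67535474, plus strand, the bases before the gene start), Fos shows the AP-1 member with 2 cores, Zfp189 the gene with the largest difference between Tau and WT mice, and Egr2 the gene with the widest range over libraries and no core. The cores are in capitals.
Fos: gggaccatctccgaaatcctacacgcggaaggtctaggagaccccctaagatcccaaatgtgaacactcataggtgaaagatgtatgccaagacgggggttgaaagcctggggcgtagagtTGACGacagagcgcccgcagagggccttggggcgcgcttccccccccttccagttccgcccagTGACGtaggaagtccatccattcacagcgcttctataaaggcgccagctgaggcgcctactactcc
Zfp189: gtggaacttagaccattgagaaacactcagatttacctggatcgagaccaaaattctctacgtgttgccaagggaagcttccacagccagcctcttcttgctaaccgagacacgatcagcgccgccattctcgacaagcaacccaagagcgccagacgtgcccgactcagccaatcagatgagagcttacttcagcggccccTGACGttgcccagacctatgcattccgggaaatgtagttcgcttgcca
Egr2: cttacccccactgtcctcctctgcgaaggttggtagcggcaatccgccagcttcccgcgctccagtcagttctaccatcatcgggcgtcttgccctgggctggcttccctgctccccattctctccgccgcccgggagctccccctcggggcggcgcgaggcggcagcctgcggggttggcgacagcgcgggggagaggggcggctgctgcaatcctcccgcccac
In the Fos window the cores lie 129 to 125 and 66 to 62 bases before the start, and in the Zfp189 window 48 to 44 bases before it.

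The libraries held 17005664 to 28972176 counts. Levels are given as CPM, counts scaled to a common library size with TMM factors, and 3 counts correspond to 0.104 to 0.176 CPM, far below the level of any of the 10 genes. Some libraries stand apart or go against their labels. Prnp, the prion protein gene, had 1649 CPM in the library labelled WT replicate 1, within the 1469 to 1692 CPM of the 4 transgenic libraries, but 872 CPM in WT replicate 2. Mapt, the tau gene, had 575 CPM in the library labelled WT replicate 1, within the 570 to 613 CPM of the transgenic libraries. In WT replicate 2 it had 448 CPM. Whether the library labelled WT replicate 1 carries the transgene was not tested. Xist and Ddx3y gave a male pattern in the library labelled WT replicate 1 and both UNC0642 libraries and a female pattern in the other 3, so UNC0642 treatment and sex cannot be told apart between the UNC0642 and Tau libraries. Tau replicate 2 held more RNA of oligodendrocyte markers (6 genes, 5108 CPM in sum against 1325 to 2705) and striatal projection neuron markers (6 genes, 166 CPM against 63.5 to 78.2). Neuronal markers (Rbfox3, Snap25, Syt1 and Tubb3) summed to 4393 to 4652 CPM in WT, 4826 to 4838 in Tau and 5321 to 5497 in UNC0642 libraries. Of these 4 genes Syt1 alone was called for UNC0642 against Tau (0.55 on the log2 scale), with Rbfox3 at -0.21, Tubb3 at -0.02 and Snap25 at 0.02. The 6 cortical excitatory markers summed to 1260 to 1406, 1266 to 1444 and 1226 to 1246 CPM. Endothelial markers (4 genes) summed to 145 to 153 CPM in WT, 101 to 111 in Tau and 106 to 135 in UNC0642 libraries, with 3 of 4 called lower in Tau than in WT, and red blood cell markers (3 genes) to 51.2 to 51.4, 31.5 to 33.3 and 34.8 to 59.9 CPM, with 2 of 3 called lower. None of these markers was at 0. Their part in the values of the 10 genes was not tested, and fewer cells of a type and less RNA per cell cannot be told apart in bulk tissue. Ehmt1 (43.6 to 48.9 CPM) and Ehmt2 (131 to 160 CPM) overlapped between all groups, with Ehmt2 at -0.10 (SE 0.099) on the log2 scale for Tau against WT. By quantitative PCR, another measure, the paper reports more EHMT2 mRNA in PFC of Tau than of WT mice. The cause of this difference was not tested.

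The 10 genes were mostly highest in UNC0642-treated Tau mice. Between UNC0642 and Tau libraries 9 of 10 were higher, with Egr1 the exception, and their median log2 fold change was 0.45 against -0.0023 over all genes tested. Between Tau and WT libraries 9 of 10 were higher, with Npas4 the exception, but the median was 0.23 (all genes -0.0001) and the genes ranged from -0.62 to 0.99. UNC0642 libraries against WT gave a median of 0.73 (all genes -0.012), again with Npas4 alone on the lower side. By the study's rule, an unadjusted p-value below 0.05 with at least a 1.2-fold difference, 4 of 10 were called higher in Tau than in WT, where 3.72% of all genes were, 7 of 10 in UNC0642 than in Tau (3.73%) and 9 of 10 in UNC0642 than in WT (3.77%), and none lower. In either direction 9.81%, 7.69% and 9.47% of all genes were called. After Benjamini-Hochberg adjustment of the edgeR quasi-likelihood test, 2, 0 and 3 of them stayed below 0.05, against 0.157%, 0.0196% and 0.216% of all genes. For UNC0642 against Tau, where edgeR gave 0, 7 had an unadjusted p-value under 0.05 (8.86% of all genes), and the DESeq2 Wald test gave 2 with an adjusted p-value under 0.05 and limma-voom 0. These adjusted counts depended on the setting, and with no filter on low counts edgeR gave 5, 7 and 8 in the 3 comparisons. The share of all genes below 0.05 in these other fits is not given here, so their adjusted counts have no background beside them. As the genes were chosen with these results known, the counts lend no weight to the choice. The 3 comparisons share libraries and are not independent of each other.

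**Figure D1:**
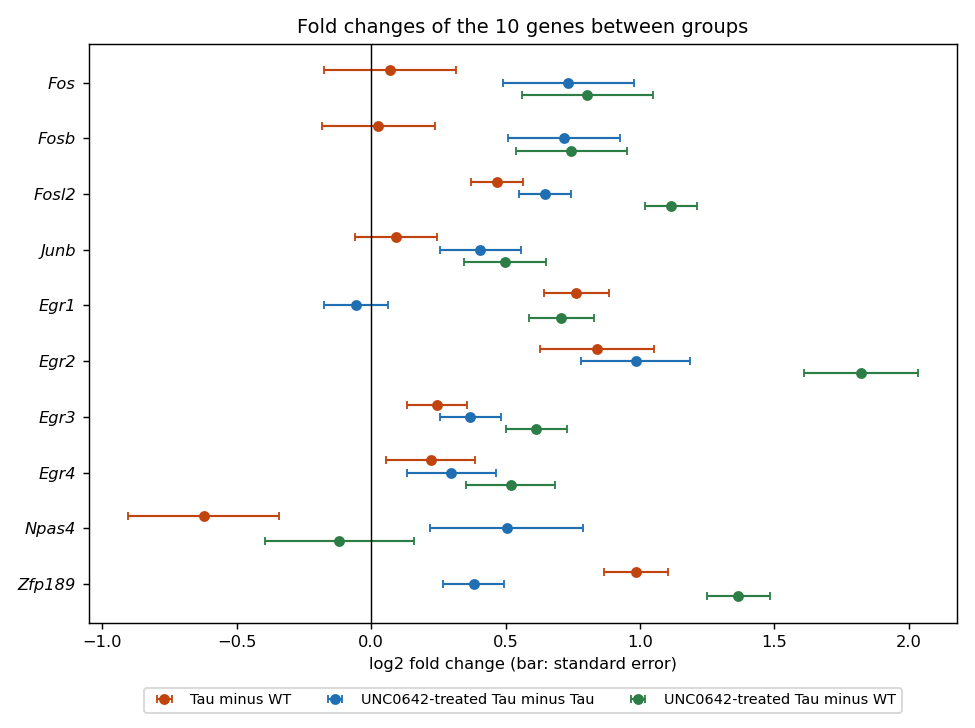
Log2 fold changes (x axis) of the 10 genes (rows) in the 3 comparisons, each point with its standard error from edgeR's quasi-likelihood fit to all 6 libraries. Most points lie right of 0, Egr2 reaches 1.82 in UNC0642-treated Tau against WT, and Npas4 (-0.62 in Tau against WT) and Egr1 (-0.06 in UNC0642 against Tau) lie on the left.

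Both UNC0642 libraries were above both Tau libraries in 9 of 10 genes, where 20.4% of all genes were, and above both WT libraries in 9 of 10 (22.1%). Both Tau libraries were above both WT libraries in 5 of 10 (21.9%). The order WT, Tau, UNC0642 from low to high, with no overlap between groups, held for Fosl2, Egr2, Egr3 and Zfp189 and for 2.99% of all genes. Fos, Fosb and Junb shared another order, UNC0642 libraries highest, the library labelled WT replicate 1 next, then the Tau libraries, and WT replicate 2 lowest.

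With all 6 libraries the 4 AP-1 genes had a median log2 fold change of 0.68 for UNC0642 against Tau, with 4 called higher (3.73% of all genes), and of 0.08 for Tau against WT, with 1 called higher (3.72%). This split changed with the setting. Without the library labelled WT replicate 1, Tau against WT was 0.64, 0.44, 0.39 and 0.42 for Fos, Fosb, Junb and Fosl2. With a term for the sex pattern, which is set by the WT pair alone, UNC0642 against Tau was -0.25, -0.03, -0.14 and 0.73 for the same genes. Fos (chr12:85473890-85477273, GRCm38, plus strand) encodes the AP-1 subunit most used as a marker of recent neuronal activity. Its levels were 45.7 CPM in the library labelled WT replicate 1, 23.1 CPM in WT replicate 2, 32.0 and 40.5 CPM in Tau and 58.5 and 61.7 CPM in UNC0642 libraries. The UNC0642 libraries were therefore above all others, while the Tau values lay between those of the WT pair. On the log2 scale the differences were 0.73 (SE 0.24) for UNC0642 against Tau, 0.07 (SE 0.25) for Tau against WT and 0.80 (SE 0.24) for UNC0642 against WT. Without Tau replicate 2, Tau against WT gave -0.10. The call for UNC0642 against Tau was lost without Tau replicate 1 (0.57) or UNC0642 replicate 2 (0.69), with the sex term, and in the DESeq2 Wald test (0.73, SE 0.41).

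Fosb (chr7:19302696-19310051, minus strand) encodes FOSB and, by alternative splicing, the truncated deltaFOSB that accumulates with repeated stimulation. Counts per gene do not separate these forms. Its levels were 14.2 and 8.50 CPM in WT, 12.1 and 10.98 CPM in Tau and 18.7 and 19.4 CPM in UNC0642 libraries. As for Fos, the treated libraries did not overlap the rest, and the Tau pair fell inside the WT range. On the log2 scale the difference was 0.72 (SE 0.21) for UNC0642 against Tau and 0.03 (SE 0.21) for Tau against WT, which became 0.44 without the library labelled WT replicate 1. Junb (chr8:84974484-84978718, minus strand), whose product pairs with FOS proteins and is a weaker activator than JUN, was at 75.7 and 51.7 CPM in WT, 68.6 and 67.3 CPM in Tau and 83.8 and 96.1 CPM in UNC0642 libraries. Its log2 fold changes were smaller, 0.41 (SE 0.15) for UNC0642 against Tau and 0.09 (SE 0.15) for Tau against WT, and the first was no longer called without Tau replicate 1 (0.42), Tau replicate 2 (0.39) or UNC0642 replicate 2 (0.30). For UNC0642 against WT it was 0.50 (SE 0.15), and not called without WT replicate 2 (0.25) or UNC0642 replicate 2 (0.39). Junb overlaps Prdx2 on the opposite strand by 351 bases, and Prdx2 had 2842 to 4695 counts per library. The libraries were stranded but the strand setting of the counting is not given in the sources used here, so the Junb counts are uncertain.

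Fosl2 (chr5:32135801-32157842, plus strand), which encodes the later and longer-lived FRA-2, differed from the other AP-1 genes. It was at 28.7 and 30.4 CPM in WT, 42.5 and 39.1 CPM in Tau and 62.2 and 65.7 CPM in UNC0642 libraries. No groups overlapped, and the libraries of a group were within 1.06-fold to 1.09-fold of each other. The log2 fold change was 0.47 (SE 0.097) for Tau against WT, 0.65 (SE 0.096) for UNC0642 against Tau and 1.11 (SE 0.097) for UNC0642 against WT. Leaving out any library left these between 0.40 and 0.53, between 0.58 and 0.71 and between 1.07 and 1.16. Jun, the AP-1 partner gene outside the set, was at 27.8 to 34.7 CPM in all libraries with overlapping groups, and its log2 fold changes were -0.07, 0.06 and -0.01 in the same order.

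**Figure D2:**
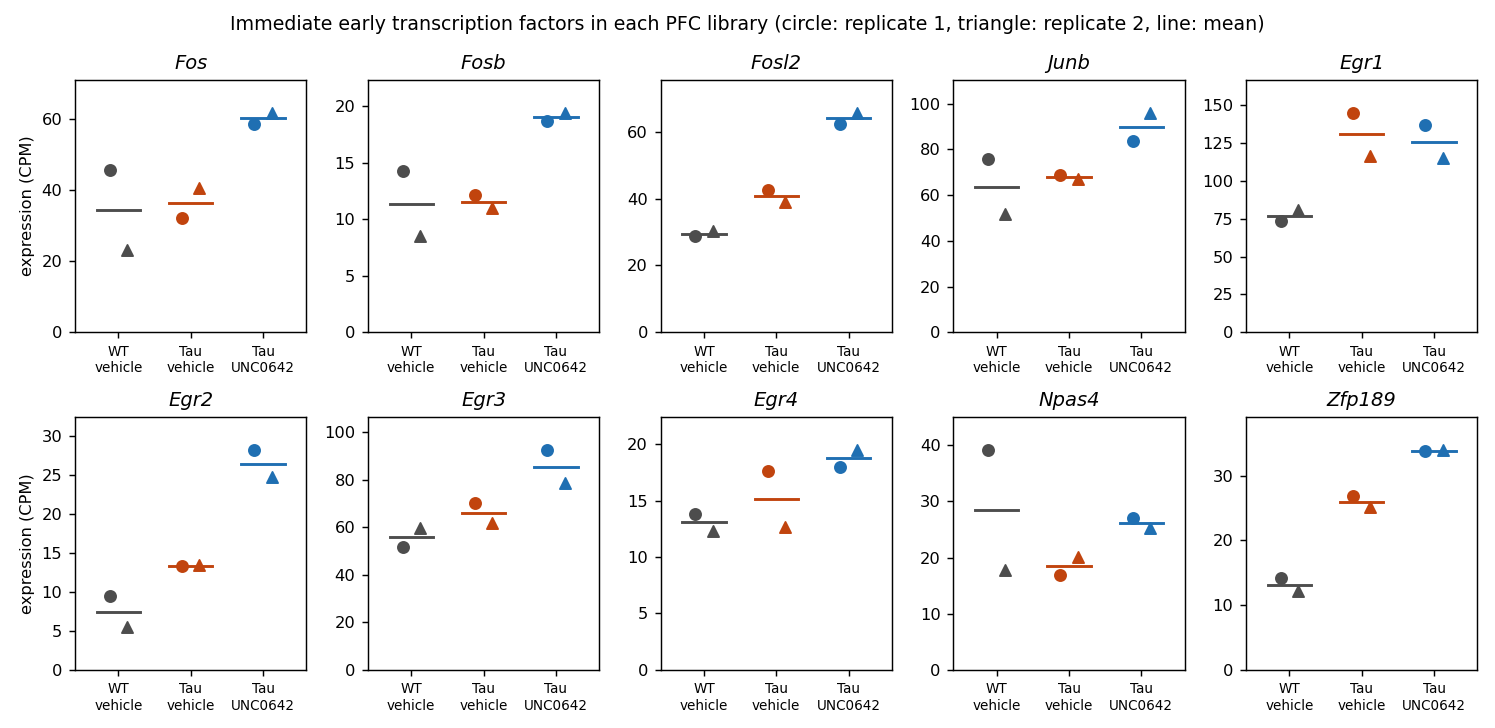
Expression in CPM (y axis, from 0) of the 10 genes in the WT vehicle, Tau vehicle and Tau UNC0642 groups, with a point per library and a line at the mean of the 2 libraries. Fosl2, Egr2, Egr3 and Zfp189 step up from WT to Tau to UNC0642 without overlap, while the WT pair is wide apart for Fos (45.7 and 23.1 CPM), Fosb, Junb, Egr2 and Npas4.

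The Egr genes did not share a single pattern. Egr1 (chr18:34859823-34864984, plus strand), also known as Zif268 and a standard readout of synaptic plasticity, was at 73.4 and 80.6 CPM in WT, 145 and 116 CPM in Tau and 137 and 115 CPM in UNC0642 libraries. The treated and untreated Tau libraries interleaved, and both pairs lay above WT. The log2 fold change was 0.76 (SE 0.12) for Tau against WT, -0.06 (SE 0.12) for UNC0642 against Tau and 0.71 (SE 0.12) for UNC0642 against WT. Leaving out single libraries left UNC0642 against Tau between -0.21 and 0.11.

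Egr2 (chr10:67535475-67542188, plus strand), known as Krox20 and also required for myelination by Schwann cells, had the widest range of the set, 5.12-fold from the lowest to the highest library. It was at 9.41 and 5.50 CPM in WT, 13.3 and 13.4 CPM in Tau and 28.1 and 24.7 CPM in UNC0642 libraries. Each group lay above the one before with no overlap, although the WT pair differed 1.71-fold. Log2 fold changes were 0.84 (SE 0.21) for Tau against WT, 0.98 (SE 0.20) for UNC0642 against Tau and 1.82 (SE 0.21) for UNC0642 against WT. Without the library labelled WT replicate 1, Tau against WT was 1.27, and without WT replicate 2 it was 0.50.

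Egr3 (chr14:70077203-70082614, plus strand), a factor with roles in memory processing and in the development of muscle spindles, was at 51.8 and 59.7 CPM in WT, 70.2 and 61.9 CPM in Tau and 92.5 and 78.5 CPM in UNC0642 libraries. The groups were ordered as for Egr2, but the gap between the nearest Tau and WT libraries was small. Its log2 fold change was 0.25 (SE 0.11) for Tau against WT, called without WT replicate 2 (0.35) or Tau replicate 2 (0.33), and 0.37 (SE 0.11) for UNC0642 against Tau, and the second was not called without Tau replicate 2 (0.28) or without UNC0642 replicate 1 (0.25). Egr4 (chr6:85511121-85513589, minus strand), the shortest of the 10 genes in genomic span, was at 13.8 and 12.3 CPM in WT, 17.6 and 12.6 CPM in Tau and 17.98 and 19.5 CPM in UNC0642 libraries. Tau replicate 2 lay within the WT range and Tau replicate 1 close to the UNC0642 libraries. Its log2 fold change of 0.22 (SE 0.17) for Tau against WT was 0.44 without Tau replicate 2 and -0.05 without Tau replicate 1, and that of 0.30 (SE 0.17) for UNC0642 against Tau was 0.08 and 0.57. For UNC0642 against WT it was 0.52 (SE 0.17), and not called without WT replicate 2 (0.44) or UNC0642 replicate 2 (0.46).

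Npas4 (chr19:4984355-4990316, minus strand), whose product pairs with ARNT2 and regulates the number of inhibitory synapses on excitatory neurons, was the gene that departed most from the rest. It was at 39.2 and 17.7 CPM in WT, 16.9 and 20.1 CPM in Tau and 27.1 and 25.3 CPM in UNC0642 libraries. The highest library of all was the one labelled WT replicate 1, and WT replicate 2 was at the level of the Tau libraries. Log2 fold changes were -0.62 (SE 0.28) for Tau against WT, 0.50 (SE 0.28) for UNC0642 against Tau and -0.12 (SE 0.28) for UNC0642 against WT. Without the library labelled WT replicate 1 the comparisons with WT became 0.06 and 0.56. Without WT replicate 2 they were -1.08 and -0.58, so the signs rest on the library labelled WT replicate 1.

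Zfp189 (chr4:49521176-49531517, plus strand) begins 83 bases from the neighbouring gene Mrpl50. It was at 14.1 and 12.1 CPM in WT, 26.9 and 25.1 CPM in Tau and 33.8 and 34.0 CPM in UNC0642 libraries. The 2 libraries of each group were close, no groups overlapped, and the larger step lay between WT and Tau. The log2 fold change was 0.99 (SE 0.12) for Tau against WT, the highest of the 10 genes in that comparison, 0.38 (SE 0.11) for UNC0642 against Tau and 1.37 (SE 0.12) for UNC0642 against WT. With single libraries left out the first stayed between 0.88 and 1.10 and the second between 0.33 and 0.43, the lower value, without Tau replicate 2, being no longer called.

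Replicates were closest in the treated group. The fold difference between the 2 libraries of a group, the higher over the lower, had a median over the 10 genes of 1.08 in UNC0642 (1.01 for Zfp189 to 1.19 for Egr1), 1.12 in Tau (1.01 for Egr2 to 1.396 for Egr4) and 1.31 in WT (1.06 for Fosl2 to 2.21 for Npas4). Over all genes tested the medians were 1.12, 1.14 and 1.146. The library labelled WT replicate 1 was at least 1.4-fold above WT replicate 2 for Fos (1.98), Fosb (1.68), Junb (1.46), Egr2 (1.71) and Npas4 (2.21), 5 of 10 genes, where 11.1% of all genes were. That limit was set after the values were seen. Fosl2, Egr1 and Egr3 were lower in it than in WT replicate 2, with ratios of 0.94, 0.91 and 0.87.

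The 10 genes thus did not vary as a block over the 6 libraries. Pearson's r between the log2 CPM of a gene and the mean of the other 9 was 0.99 for Egr2, 0.79 to 0.92 for Fos, Fosb, Fosl2, Junb, Egr3, Egr4 and Zfp189, 0.60 for Egr1 and 0.20 for Npas4. Fos, Fosb and Junb were closest to each other (0.95 to 0.97), and Npas4 was nearest to Fos (0.65) and Fosb (0.59). Npas4 was below 0 with Egr1 (-0.42), Egr3 (-0.13), Zfp189 (-0.07) and Fosl2 (-0.01). With 6 libraries that share groups and sex patterns these coefficients are a description.

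Within libraries of 1 sex pattern, both Tau libraries were above WT replicate 2 in 9 of 10 genes, where 37% of all genes were, and both UNC0642 libraries were above the library labelled WT replicate 1 in 9 of 10, where 36.3% were. Npas4 was the exception in both. No UNC0642 and Tau libraries share a pattern, so that comparison has no such value. A term for the sex pattern is set by the WT pair alone, so it takes up any other difference between those libraries, such as that in Prnp. Values with it are therefore not treatment differences freed of sex. With this term in the model, the median for UNC0642 against Tau was 0.10 in place of 0.45. With it 3 genes were called in place of 7, 2 of them higher, where 8.05% of all genes were called in either direction. Fos (-0.25), Fosb (-0.03), Junb (-0.14) and Npas4 (-0.64) then lay below 0, Egr2 (0.21) and Zfp189 (0.16) were no longer called, and Fosl2 (0.73) and Egr3 (0.57) stayed called. Npas4 was the gene called lower. The same term gave 7 called genes for Tau against WT (median 0.44) and 8 for UNC0642 against WT (median 0.58). Of all genes 9.21% and 10.1% were called in these 2 comparisons. Those values set the Tau libraries against WT replicate 2 and the UNC0642 libraries against the library labelled WT replicate 1. They are thus nearly the estimates found with the other WT library left out, and not separate checks.

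**Figure D3:**
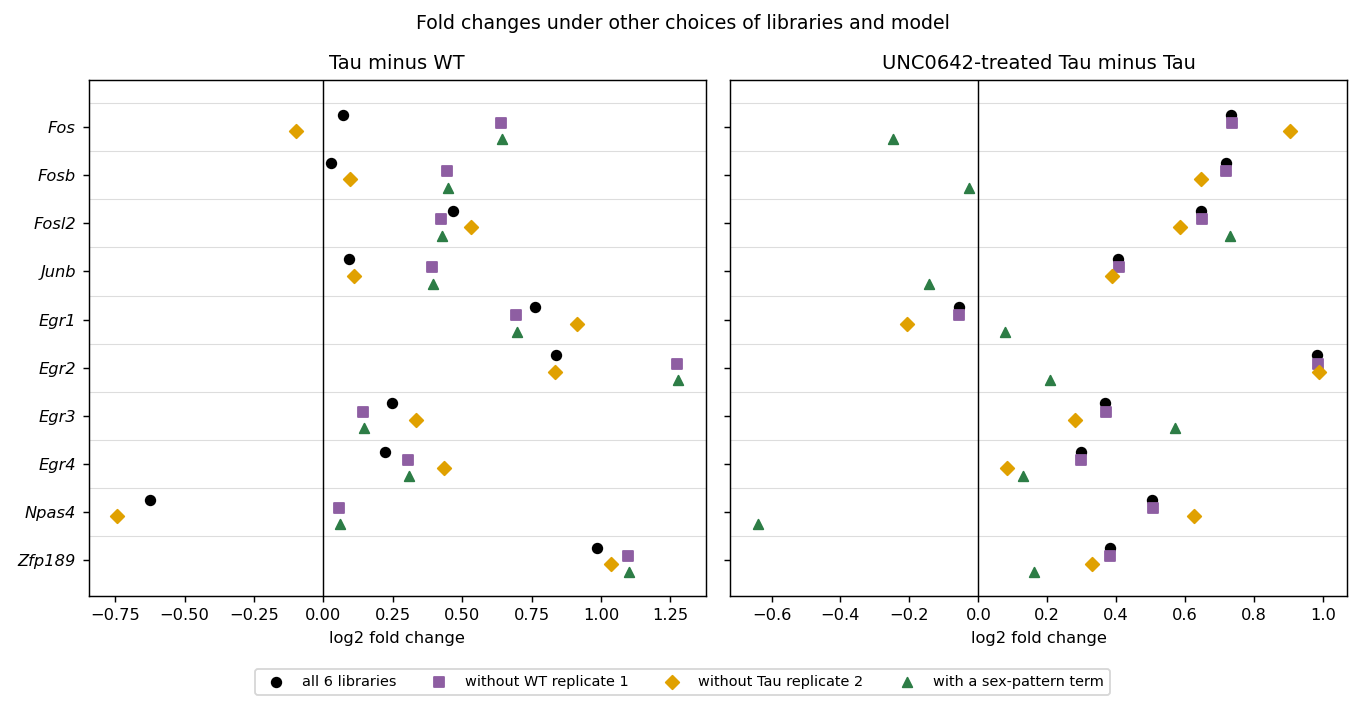
Log2 fold changes (x axis) of the 10 genes (rows) for Tau against WT (left) and UNC0642-treated against untreated Tau (right), from all 6 libraries, without the library labelled WT replicate 1, without Tau replicate 2, and with a term for the sex pattern. On the left Fos moves from 0.07 to 0.64 without the library labelled WT replicate 1, and the values with the sex term are nearly the same estimate. On the right, with the sex term, Fosl2 lies at 0.73 and Egr3 moves from 0.37 to 0.57, while Fos moves from 0.73 to -0.25.

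The number of genes called was also set by single libraries. A fit with a library left out has 1 library in a group, so only medians are given for it. For Tau against WT the median was 0.23 with all libraries, 0.43 without the library labelled WT replicate 1 and 0.25 without WT replicate 2. For UNC0642 against Tau it was 0.45 with all libraries and 0.49 without Tau replicate 2. Without both the library labelled WT replicate 1 and Tau replicate 2, the medians were 0.50 for Tau against WT, 0.49 for UNC0642 against Tau and 0.94 for UNC0642 against WT.

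Levels of different genes were compared as CPM per kb of exon. Junb, whose counts are uncertain, had the highest mean in every group (27.7, 29.5 and 39.1 in WT, Tau and UNC0642), followed by Egr1 (17.2, 29.1 and 28.1), Fos (14.6, 15.4 and 25.5) and Egr3 (12.7, 14.99 and 19.4). Fosb was lowest (1.82, 1.85 and 3.05), and Fosl2 was 8th in each group (3.05, 4.21 and 6.60). In WT the library values of Junb (22.5 and 32.9) lay above those of Egr1 (16.4 and 17.98), but Egr1, Fos (9.83 and 19.4) and Egr3 (11.8 and 13.6) overlapped in neighbouring pairs. In Tau libraries Egr1 (32.3 and 25.9) and Junb (29.8 and 29.2) overlapped. In UNC0642 libraries Egr1 (25.7 and 30.5) and Fos (24.9 and 26.2) also overlapped. Npas4 was 5th in WT (6.88) and 9th in UNC0642 (6.34), and Zfp189 was 7th (4.37) and 5th (11.3). The WT mean of Npas4 joins 9.47 in the library labelled WT replicate 1 and 4.28 in WT replicate 2, where Egr4 had 5.74. In UNC0642 libraries Npas4 (6.55 and 6.13) overlapped Fosl2 (6.43 and 6.78). The exon length counts all annotated exons of a gene, so genes with unused long exons are understated.

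Of 45 other genes known to be induced by activity, listed with earlier results of these data known, 22 were called higher and 2 lower in Tau than in WT (background 3.72% higher and 6.1% lower), 13 higher and 1 lower in UNC0642 than in Tau (3.73% and 3.95%), and 26 higher and 1 lower in UNC0642 than in WT (3.77% and 5.69%). Their median log2 fold changes were 0.27, 0.15 and 0.43, beside 0.23, 0.45 and 0.73 for the 10 factors. With the edgeR quasi-likelihood p-values adjusted by Benjamini-Hochberg over all genes, 5, 1 and 11 of them were below 0.05. The number called for UNC0642 against Tau fell without Tau replicate 1 or UNC0642 replicate 1, and so did the share of all genes called. The median of the list in that comparison stayed between 0.14 and 0.19 with single libraries left out. The genes called lower were Btg2 and Ier2 (-0.50) in Tau against WT, Per1 (-0.47) in UNC0642 against Tau and Btg2 in UNC0642 against WT, of which Ier2 and Per1 were named after their values were seen.

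Arc, whose product acts in AMPA receptor endocytosis at synapses, was at 230 and 175 CPM in WT, 332 and 369 CPM in Tau and 535 and 553 CPM in UNC0642 libraries, a stepwise order like that of Egr2. Its log2 fold changes were 0.79 (SE 0.12) for Tau against WT and 0.63 (SE 0.12) for UNC0642 against Tau, with Benjamini-Hochberg adjusted p-values of 0.0416 and 0.171 (edgeR quasi-likelihood). Homer1, a postsynaptic scaffold gene with a short activity-induced form that counts per gene do not separate, was at 360 and 376, 479 and 482, and 802 and 867 CPM in the same libraries. It rose in UNC0642 against Tau by 0.80 (SE 0.074, adjusted p-value 0.00573 in the same edgeR test). Nr4a3, an orphan nuclear receptor gene, rose in Tau against WT by 0.95 (SE 0.11, adjusted p-value 0.014 in that edgeR test), from 22.8 and 20.6 CPM to 42.6 and 41.3 CPM, and was at 43.8 and 48.6 CPM in UNC0642 libraries. Arc, Homer1 and Nr4a3 are among the genes of the list with the largest called changes, so their p-values are a description. For all genes of the list, UNC0642 against Tau coincides with the sex pattern.

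Other genes of this list followed several patterns. Nr4a2 had a log2 fold change of 0.81 (SE 0.19) in Tau against WT and 0.02 (SE 0.18) in UNC0642 against Tau, close to the pattern of Egr1, and Nr4a1 had 0.34 and 0.17. Btg2, an antiproliferative gene, was at 50.4 and 34.1 CPM in WT, 20.6 and 19.6 CPM in Tau and 28.98 and 24.7 CPM in UNC0642 libraries, with -1.07 (SE 0.17) for Tau against WT. It was the largest change of the list in that comparison and opposite in sign to most. Bdnf, which encodes the neurotrophin BDNF, had 0.52 and 0.39, and Ptgs2, the inducible cyclooxygenase gene, 0.71 and 0.36, and both were ordered WT, Tau, UNC0642 without overlap like Fosl2. Ier3 (-0.20 and 0.63) and Inhba (-0.26 and 0.55), which encodes an activin subunit, were lower in Tau than in WT, not called, and higher in UNC0642 than in Tau libraries, called. The order WT, Tau, UNC0642 without overlap held for 16 of the 45 genes and for 2.99% of all genes.

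**Figure D4:**
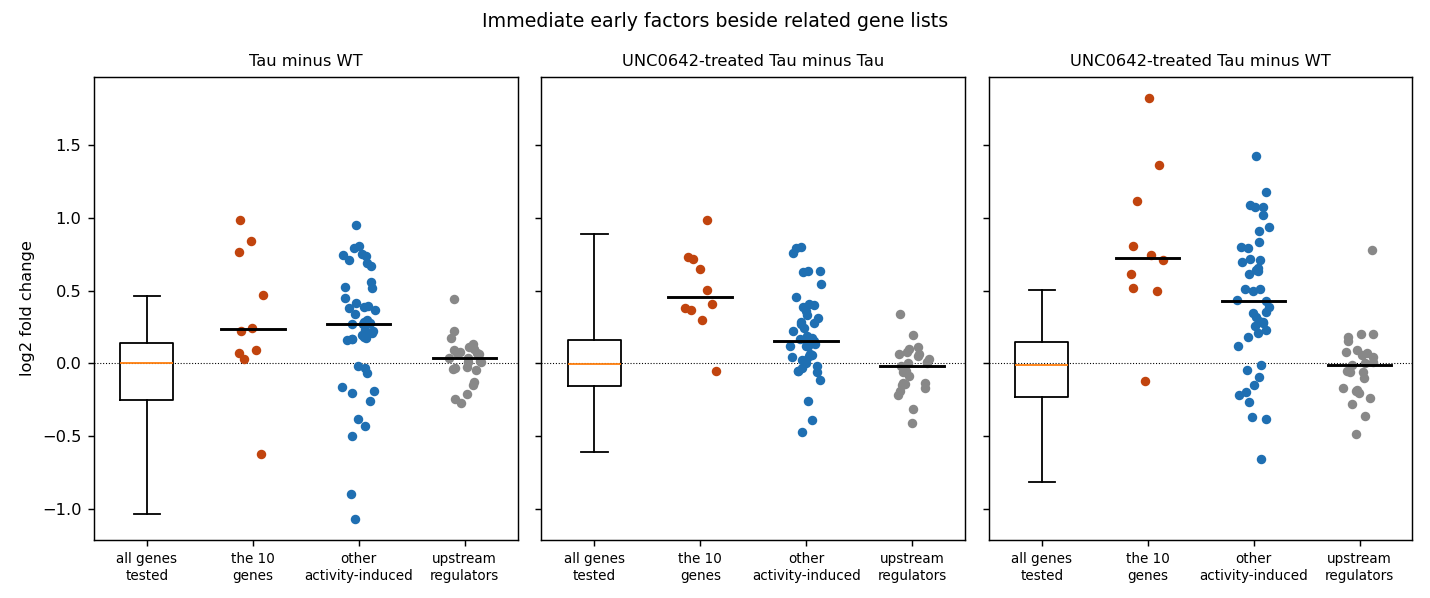
Log2 fold changes (y axis) in the 3 comparisons for the 10 factors, 45 other activity-induced genes and 25 upstream regulators and partners, with a point per gene, a line at the median, and a box with the median, quartiles and 5th to 95th percentiles of all 20409 genes tested. The medians of the upstream genes (0.04, -0.02 and -0.01) lie near 0, and those of the 10 factors at 0.23, 0.45 and 0.73.

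Of 25 genes that act upstream of the 10 factors or with them, 1 was called higher and 0 lower in Tau against WT, 1 and 2 in UNC0642 against Tau and 1 and 3 in UNC0642 against WT. These counts are near the background, as 9.81%, 7.69% and 9.47% of all genes were called in either direction. The median log2 fold changes of the list were 0.04, -0.02 and -0.01. Srf, the serum response factor gene, had 0.07 (SE 0.12) and 0.00 (SE 0.12) in the first 2 comparisons, and Creb1 had 0.13 (SE 0.080) and 0.05 (SE 0.080). Nab2, the EGR corepressor and itself a target of EGR proteins, was the gene called higher each time. It was at 14.0 and 13.7 CPM in WT, 19.3 and 18.4 CPM in Tau and 23.9 and 23.8 CPM in UNC0642 libraries, and its log2 fold change for UNC0642 against WT was 0.78 (SE 0.11, Benjamini-Hochberg adjusted p-value 0.0294, edgeR quasi-likelihood). The genes called lower were Mkl1 (-0.41), a cofactor of SRF, and Mef2d (-0.32) in UNC0642 against Tau, and Elk3 (-0.49), Crtc1 (-0.36), a coactivator of CREB, and Mef2d (-0.28) in UNC0642 against WT. None of these 5 calls had an adjusted p-value under 0.05.

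Among 1518 other genes with a mean of at least 5 CPM and an SD of log2 CPM over libraries of at least 0.25, those near the mean pattern of the 10 factors by Pearson's r over the 6 libraries included Lsg1 (0.988), Cdkn1a (0.980), Gpr19 (0.980), Ccdc117 (0.979), Arc (0.965), Gm15361 (0.960) and Sertad1 (0.954). Cdkn1a encodes the cell cycle inhibitor p21, and was at 9.25 and 5.15 CPM in WT, 10.04 and 8.29 CPM in Tau and 14.8 and 14.0 CPM in UNC0642 libraries. Like Fos it was higher in the library labelled WT replicate 1 than in WT replicate 2. Of the 100 nearest genes 13 were on the list of activity-induced genes, of which 22 met the same limits of level and SD. With so few libraries many genes reach a high r, and likeness of pattern is a description of these libraries alone.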

How the data were processed

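RNA of PFC tissue was measured in 6 libraries, and the authors deposited raw counts per gene, 1 file a library. Per the labels and methods, stranded ribosomal-depleted libraries were sequenced, with Cutadapt for trimming, TopHat2 for alignment (RefSeq mRNAs, as the methods state) and featureCounts for counting. The processing notes name mm10. In 2 files 26 gene names had turned into dates and were restored by position. Loci are from GENCODE M21 (53669 of 54429 names matched a single gene), promoters from RefSeq.

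The 10 genes and both lists were chosen with earlier results of these data known. Counts were analysed with edgeR 4.0.16 (R 4.3.3): filterByExpr (minimum count 10, minimum total 15), TMM scaling (factors 0.966 to 1.04), and a quasi-likelihood fit with a mean per group, 3 residual degrees of freedom and a biological coefficient of variation of 12.3%. P-values were adjusted by Benjamini-Hochberg over 20409 genes. SE is the absolute log2 fold change over the root of F. Replicate numbers did not pair libraries (correlations of deviations -0.034, -0.021 and -0.0033). Alternatives used DESeq2 1.42.0 and limma-voom 3.58.1. Beside the 10 genes and label checks, named genes were up to 4 per list and comparison with the largest called change, the 8 nearest in pattern (1 is not reported here), and Arc, Nr4a1, Jun, Bdnf, Homer1, Srf, Creb1 and Nab2. In simulated Tau and WT libraries with 19863 genes, 95% of 100 genes changed 1.5-fold, 99% of 100 changed 2-fold and 4.36% of unchanged genes were called. After adjustment, 55% and 90% of the changed genes and 21 of 19663 unchanged genes were below 0.05. The changed genes had a mean of at least 5 CPM. No simulated library had a sex pattern or stood apart, so these shares need not hold for the real libraries.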

Additional observations from a re-analysis of the deposited data

How the results depend on the processing

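With 2 libraries a group and 3 residual degrees of freedom, only large or tight differences can pass adjustment, and counting error is widest for Egr2, Fosb and Egr4, with as few as 141, 192 and 221 counts in a library. Where a library is left out, the lone library of its group is assumed to vary like the other groups. DESeq2 size factors, library size alone, no filter, a minimum of 10 counts per library, limma-voom, the DESeq2 Wald test, a fit of the compared groups alone and a replicate block left the numbers of the 10 genes called within 1.5 times of 4, 7 and 9, though the DESeq2 Wald test lost Fos for UNC0642 against Tau. Numbers with an adjusted p-value under 0.05 moved more, from 2, 0 and 3 to 5, 7 and 8 with no filter. They were 0, 2 and 4 with a fit of the compared groups alone, and moved with libraries left out as well. With no filter the number among the 45 activity-induced genes also rose, from 5 to 19 for Tau against WT. The share of all genes below 0.05 in these alternatives is not given here, so these numbers have no background beside them. The replicate block gave 4, 7 and 9 called (8.78%, 6.88% and 8.6% of all genes), with medians of 0.22, 0.45 and 0.74. It changed no call of a single gene. Of the alternative values for the 10 single genes, 419 kept direction and call, 25 gained and 17 lost the call, and 19 changed sign.

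For Tau against WT, the median of the 10 genes was 0.44 with the sex term and 0.43 without the library labelled WT replicate 1. These are nearly the same estimate, as the sex term sets the Tau libraries against WT replicate 2 alone. They are not separate checks, and the values counted above hold both. Without the library labelled WT replicate 1 and Tau replicate 2, a choice made after seeing the data, the median was 0.50. Leaving out single libraries gave medians of 0.19 to 0.43, 0.45 to 0.52 and 0.58 to 0.93 in the 3 comparisons. With the sex term the median for UNC0642 against Tau was 0.10, with 3 called, where 8.05% of all genes were. For UNC0642 against WT the median without both libraries was 0.94. For the 45 activity-induced genes, Tau against WT gave a median of 0.20 with library size alone and 0.33 with the sex term, UNC0642 against Tau 0.061 with the sex term, and UNC0642 against WT 0.54 without both libraries. Single libraries left out gave medians of 0.24 to 0.33, 0.14 to 0.19 and 0.36 to 0.53, and 21 to 25, 8 to 15 and 23 to 29 called.

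Sign changes in Tau against WT were Fos -0.0018 and Fosb -0.047 with library size alone and Npas4 0.058 with the sex term. With libraries left out, singly or both named above, Fos ranged from -0.34 to 0.64, Fosb from -0.30 to 0.52, Junb from -0.15 to 0.41, Egr4 from -0.049 to 0.52 and Npas4 from -1.08 to 0.055, the sign changing without WT replicate 2 for Fos, Fosb and Junb, without Tau replicate 2 for Fos (-0.10), without Tau replicate 1 for Fosb (-0.052) and Egr4, and without the library labelled WT replicate 1 for Npas4. In UNC0642 against Tau they were Fos -0.25, Fosb -0.027, Junb -0.14, Npas4 -0.64 and Egr1 0.077 with the sex term, and Egr1 ranged from -0.21 to 0.11 with libraries left out, above 0 without Tau replicate 1 (0.11) or UNC0642 replicate 2 (0.065). In UNC0642 against WT, Npas4 ranged from -0.58 to 0.56, the higher value being without the library labelled WT replicate 1, with or without Tau replicate 2. The cause of these shifts was not tested.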
